A study of Mus musculus with 9 samples.

Results

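The genes described here are 37 mouse genes for the import of proteins into mitochondria, for mitochondrial fusion and fission and for mitophagy, out of the 13646 genes that were in both expression tables. They were picked by gene name, in a setting where earlier results of these data were known. They comprise 14 genes whose names start with Timm and a digit, 9 whose names start with Tomm and a digit, and 14 picked singly (Mfn1, Mfn2, Opa1, Dnm1l, Fis1, Mff, Pink1, Bnip3, Bnip3l, Fundc1, Fundc2, Phb, Phb2 and Immt). All 37 were in both tables, and all 37 passed the filter on low values in every comparison. Expression was measured by RNA-seq of heart tissue from male C57BL/6 mice, with 3 mice and 1 library per mouse in each of 3 groups and a labelled age of 10 weeks. The TAC+PUE mice had transverse aortic constriction (TAC), a tie around the aortic arch that raises the pressure against which the left ventricle pumps, and a daily intraperitoneal dose of 100 mg/kg puerarin, an isoflavone glycoside of kudzu root, begun 3 days ahead of the operation. The TAC mice had the same constriction and saline, and the sham mice had saline and the operation without the tie. All hearts were taken 21 days after surgery. No mouse received puerarin without TAC, so the action of the drug in an unloaded heart was not measured. Values are FPKM, fragments per kilobase of transcript scaled to the mapped fragments of each library, and n = 3 mice per group throughout.

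Nearly all mitochondrial proteins are made in the cytosol. They pass the outer membrane through the TOM complex (Tomm genes) and then enter or cross the inner membrane through the TIM23 and TIM22 complexes (Timm genes). Mitochondria also fuse, through mitofusins in the outer membrane and OPA1 in the inner one, and divide, through the dynamin-related GTPase DRP1 encoded by Dnm1l. Damaged mitochondria are removed by mitophagy, in which the PINK1 kinase or receptors such as BNIP3 and FUNDC1 mark them for the autophagosome. Cardiomyocytes are packed with mitochondria, and loss of mitofusins or of DRP1 from the mouse heart is known to cause cardiomyopathy.

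The libraries differed in more than the treatment. The 13 mRNAs encoded by mitochondrial DNA took 14.2 to 26.0% of the summed FPKM in TAC+PUE hearts, 2.81 to 7.04% in TAC hearts and 31.6 to 42.9% in sham hearts, and the total FPKM were 239516 to 251104, 187444 to 220567 and 259362 to 287728 in the same groups. The 2 rRNA-like transcripts took 1.11 to 2.52% in TAC+PUE, 4.81 to 7.50% in TAC and 0.520 to 1.11% in sham hearts. All 9 cardiomyocyte markers were tested in every comparison, and their sums were 9502 to 9864 FPKM in TAC+PUE, 12633 to 13963 FPKM in TAC and 8674 to 9787 FPKM in sham hearts, so the labelled tissue carries its defining markers. The 5 red blood cell markers summed to 1527 to 6068 FPKM in TAC+PUE, 5275 to 7690 FPKM in TAC and 1056 to 1283 FPKM in sham hearts. The 5 macrophage markers summed to 122 to 154 FPKM in TAC+PUE, 162 to 200.1 FPKM in TAC and 93.3 to 102 FPKM in sham hearts, the 5 fibroblast markers to 207 to 267, 222 to 249 and 129.8 to 136 FPKM in the same groups, and the 5 of smooth muscle and pericytes to 171 to 280.3, 98.7 to 146 and 234 to 250.3 FPKM. Not every marker followed its sum. For TAC against sham, 2 macrophage markers were higher and 1 lower, and 2 fibroblast markers were higher and 2 lower (limma, adjusted p under 0.05). Of 4 tested markers of smooth muscle and pericytes, 2 were higher and 2 lower. For TAC+PUE against TAC, the counts were 2 and 1, 2 and 1, and 1 and 0. Of the 9 cardiomyocyte markers, 5 were higher and 2 lower for TAC against sham (log2 fold changes of -2.09 to 1.09). For TAC+PUE against TAC, 1 of them was higher and 3 were lower (-1.08 to 1.66). Of all genes, 25.3% were higher and 37.7% lower, and 32.9 and 5.45%, in these comparisons. The 5 atrial markers (Myl7, Myl4, Sln, Nppa and Bmp10) summed to 617 to 3732 FPKM in TAC+PUE, 589 to 902 FPKM in TAC and 71.7 to 76.6 FPKM in sham hearts, and none of them passed for TAC+PUE against TAC, with log2 fold changes of -0.62 to 2.50. Against sham hearts, 2 of 2 tested atrial markers were higher in TAC hearts, at 2.93 and 4.12. In TAC+PUE hearts 4 of 4 were higher than in sham hearts, at 3.96 to 6.42, beside 14.6% of all genes (limma, adjusted p under 0.05). Nppa, which ventricles under load also express, made up most of each sum. Myl7, an atrial myosin light chain, was at 27.4, 708 and 245 FPKM in the TAC+PUE hearts, 79.8, 1.60 and 198 FPKM in the TAC hearts and 1.07, 1.06 and 0.857 FPKM in the sham hearts. In TAC replicate 2 Nppa was at 587 FPKM beside 1.60 FPKM of Myl7, while Sln and Bmp10 were listed at 0, and Bmp10 was also listed at 0 in TAC+PUE replicate 2, where Myl7 was highest. The part of these differences in the results was not tested, except where a value without the libraries or under another scaling is given. Since whole tissue was sequenced, fewer cells of a type and less RNA per cell cannot be told apart.

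The start regions of 6 members that were higher or lower in TAC than in sham hearts are printed as examples of each motif alone and of both together, not as the members with the largest changes, because the nuclear genes of mitochondria are known to share binding motifs for NRF1, a transcription factor of respiratory genes, and for ETS factors such as GABP. The 300 bases around a start site were taken from RefSeq for GRCm38.p6, and 33 of the 37 members matched with 40 start regions, while Bnip3l, Tomm7, Tomm40l and Timm21 are not shown. The motif GCGCANGCG of NRF1 (N stands for any base) was searched on both strands and stood in 8 of the 40 member regions (20%), against 6.25% of all 32851 start regions. The motif CCGGAAG of ETS factors, searched in the same way, stood in 16 member regions (40.0%) of 14 genes, against 8.86% of all. Of the 33 members, 20 held one or the other. The E-box CACGTG stood in 15.0% of member regions and 7.15% of all, the ERR motif TCAAGGTCA and the YY1 motif AAGATGGCG in 1 member region each, and the CRE motif TGACGTCA in none. The member regions had a median GC content of 59.0%, against 52.7% for all, and both frequent motifs are rich in G and C.

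In the sequences, capitals mark the NRF1 and ETS motifs on either strand, and overlapping matches run together, as for NRF1 in Opa1 and ETS in Tomm22. Opa1 lies at chr16:29579084-29579383 on the plus strand, Bnip3 at chr7:138909457-138909756 on the minus strand, Timm8b at chr9:50603651-50603950 on the plus strand, Immt at chr6:71831070-71831369 on the plus strand, Dnm1l at chr16:16358526-16358825 on the minus strand and Tomm22 at chr15:79670618-79670917 on the plus strand.
Opa1: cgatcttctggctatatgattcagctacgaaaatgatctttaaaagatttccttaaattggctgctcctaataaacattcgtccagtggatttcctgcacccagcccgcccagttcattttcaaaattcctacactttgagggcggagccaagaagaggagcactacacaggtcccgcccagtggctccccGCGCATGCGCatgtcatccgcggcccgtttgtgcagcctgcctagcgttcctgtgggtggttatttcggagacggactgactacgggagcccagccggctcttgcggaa
Bnip3: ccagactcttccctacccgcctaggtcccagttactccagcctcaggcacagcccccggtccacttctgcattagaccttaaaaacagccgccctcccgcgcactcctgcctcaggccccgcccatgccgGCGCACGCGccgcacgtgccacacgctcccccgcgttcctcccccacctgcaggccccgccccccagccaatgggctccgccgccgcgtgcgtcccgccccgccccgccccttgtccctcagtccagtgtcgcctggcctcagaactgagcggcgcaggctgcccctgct
Timm8b: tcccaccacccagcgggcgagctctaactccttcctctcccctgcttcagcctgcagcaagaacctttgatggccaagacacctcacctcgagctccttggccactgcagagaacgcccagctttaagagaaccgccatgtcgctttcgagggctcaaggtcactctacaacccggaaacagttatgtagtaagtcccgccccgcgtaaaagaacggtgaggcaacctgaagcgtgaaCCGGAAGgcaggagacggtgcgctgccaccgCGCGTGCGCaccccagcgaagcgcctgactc
Immt: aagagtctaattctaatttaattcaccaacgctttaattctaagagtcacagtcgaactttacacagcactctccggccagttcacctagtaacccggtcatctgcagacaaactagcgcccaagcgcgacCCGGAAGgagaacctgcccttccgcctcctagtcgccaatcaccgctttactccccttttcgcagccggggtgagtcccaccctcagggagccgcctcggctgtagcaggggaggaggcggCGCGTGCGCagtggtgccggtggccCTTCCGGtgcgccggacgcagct
Dnm1l: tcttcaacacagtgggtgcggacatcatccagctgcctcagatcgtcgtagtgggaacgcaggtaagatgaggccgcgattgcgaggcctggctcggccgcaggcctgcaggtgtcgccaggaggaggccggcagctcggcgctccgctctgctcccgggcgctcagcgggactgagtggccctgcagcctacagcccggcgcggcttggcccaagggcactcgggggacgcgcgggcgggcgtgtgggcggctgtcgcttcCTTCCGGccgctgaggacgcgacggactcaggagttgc
Tomm22: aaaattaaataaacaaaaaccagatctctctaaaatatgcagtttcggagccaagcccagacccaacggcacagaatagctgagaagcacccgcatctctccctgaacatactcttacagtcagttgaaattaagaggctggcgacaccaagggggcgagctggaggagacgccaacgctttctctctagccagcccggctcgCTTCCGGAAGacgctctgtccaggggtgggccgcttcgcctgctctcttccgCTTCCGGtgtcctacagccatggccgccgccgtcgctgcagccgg
Of the NRF1 and ETS motifs, Opa1 and Bnip3 carry NRF1 alone, Timm8b and Immt carry both, and Dnm1l and Tomm22 carry ETS alone. Dnm1l has another start region with neither motif. Bnip3 also holds the E-box and Timm8b the ERR motif, which are not in capitals. A match in these letters is a description and not a measured binding site.

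The members differed widely in level. Over the 9 libraries Pink1 (mean 133.7 FPKM) and Mfn2 (120.0 FPKM) were the only members at 100 FPKM or more, 25 members lay between 10 and 100 FPKM, and 10 were under 10 FPKM. Timm8b (81.4 FPKM) and Timm23 (60.4 FPKM) led the import genes, and Timm9 (2.06 FPKM) was the lowest member. The 37 members together took 0.433 to 0.482% of the summed FPKM in TAC+PUE, 0.495 to 0.509% in TAC and 0.380 to 0.439% in sham hearts. That order is the reverse of the order of the mitochondrially encoded share, which is part of the same total. In RefSeq, 18 of the 37 members overlap another gene. The sources used here do not say whether strand was used in counting, so the FPKM of these members, such as Timm13 with Tmprss9, Tomm6 with Usp49 and Frs3, and Tomm40l with Apoa2, are less certain.

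In TAC hearts compared with sham hearts, the fission GTPase Dnm1l, the fusion genes Opa1 and Mfn1 and the mitophagy receptors Bnip3, Fundc1, Fundc2 and Bnip3l were lower. So were the import genes Timm17a, Timm21, Timm8b and Tomm70a, and Immt. The TOM genes Tomm40, Tomm22 and Tomm6 and the TIM genes Timm13, Timm50, Timm10b and Timm17b were higher. The fission adaptor Fis1 and Phb were higher too. Of the 37 members, 9 were higher and 12 lower (limma, adjusted p under 0.05), with log2 fold changes of 0.41 to 1.38 and of -1.71 to -0.54, and 16 did not pass. The share called was 56.8%, near the 63.0% of all 11687 genes tested. By direction, 24.3% of members were higher against 25.3% of all genes, and 32.4% lower against 37.7%. The groups did not overlap for 11 members that were higher and 13 that were lower, 29.7 and 35.1% of the members, against 28.4 and 41.9% of all genes. The median log2 fold change was -0.12 over the members and -0.12 over all genes.

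In TAC+PUE hearts compared with TAC hearts, 11 members were higher (Dnm1l, Bnip3, Fundc2, Fundc1, Timm17a, Timm8b, Opa1, Timm21, Bnip3l, Mfn1 and Tomm70a, by 0.45 to 1.28 on the log2 scale) and 3 were lower (Timm13, Tomm40 and Tomm6, at -0.95 to -0.59), while 23 did not pass. The share called was 37.8%, beside 38.4% of all 11788 genes tested, and 29.7% of members were higher against 32.9% of all, with 8.11% lower against 5.45%. The groups did not overlap for 13 members that were higher and 5 that were lower, 35.1 and 13.5% of the members, against 43.3 and 10.1% of all genes. The median was 0.14 over the members and 0.24 over all genes. This comparison shares its TAC libraries with the one against sham, so the values of each member are given side by side and no overlap between the comparisons is read. Leaving out TAC+PUE replicate 1 gave 6 higher members and leaving out TAC replicate 1 gave 7, and with TAC+PUE replicate 2 left out 5 members were lower. Of all genes, 22.9% were higher without TAC+PUE replicate 1, 21.9% were higher without TAC replicate 1, and 7.13% were lower without TAC+PUE replicate 2.

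**Figure D1:**
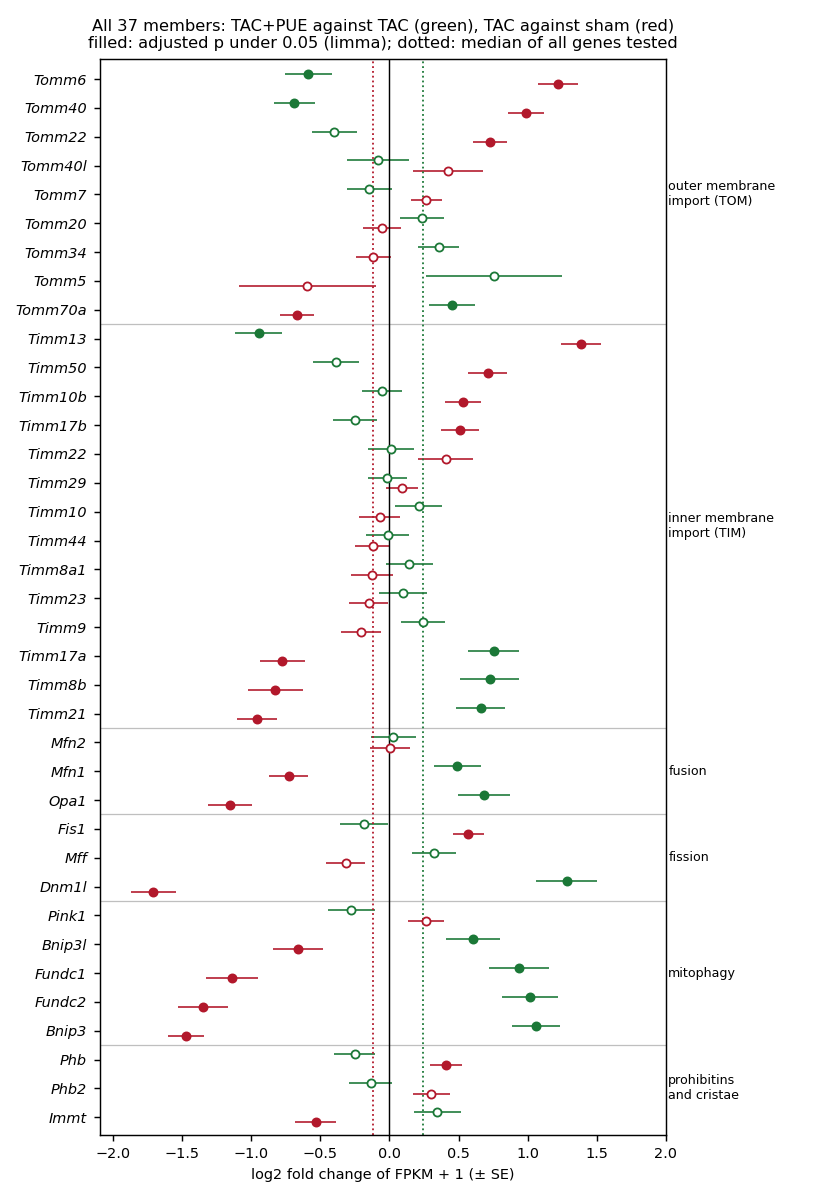
Log2 fold change of FPKM + 1 with its standard error for all 37 members, by role, for TAC+PUE against TAC (green) and TAC against sham (red), n = 3 mice per group. Filled points pass an adjusted p of 0.05 and dotted lines are the medians of all genes tested (0.24 and -0.12), and Dnm1l has the lowest red value (-1.71) and the highest green value (1.28).

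The call of direction depended on how the libraries were scaled. For TAC+PUE against TAC the members split into 11 higher and 3 lower as deposited, 5 and 14 with median-ratio scaling, 6 and 9 with all libraries rescaled to the same total, 12 and 5 with the mitochondrially encoded mRNAs removed before rescaling, and 10 and 6 with the rRNA-like transcripts removed as well. Of all genes tested, 32.9% were higher and 5.45% lower as deposited, 18.9 and 22.5% with median-ratio scaling, 22.5 and 15.5% with the same total, and 36.9 and 7.24%, and 33.9 and 8.85%, with the removals. For TAC against sham the splits of the members were 9 and 12, 14 and 12, 19 and 8, 9 and 17, and 9 and 15 in the same order, beside 25.3 and 37.7%, 35.6 and 35.3%, 44.5 and 23.7%, 20.2 and 49.8%, and 22.9 and 46.7% of all genes. The median of all genes moved with the scaling, at 0.24, -0.04, 0.04, 0.25 and 0.20 for TAC+PUE against TAC, and -0.12, 0.01, 0.22, -0.28 and -0.22 for TAC against sham. Under all 4 rescalings, Dnm1l, Bnip3, Fundc1, Fundc2 and Timm17a remained higher and Timm13, Tomm40 and Tomm6 remained lower in TAC+PUE than in TAC hearts, while the calls for Opa1, Mfn1, Bnip3l, Timm8b, Timm21 and Tomm70a were lost in at least 1. For TAC against sham all 9 higher calls and 8 of 12 lower calls were kept, the exceptions being Bnip3l, Immt, Timm8b and Tomm70a, which were lost with the same total. No called member changed sign under any of these scalings.

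**Figure D2:**
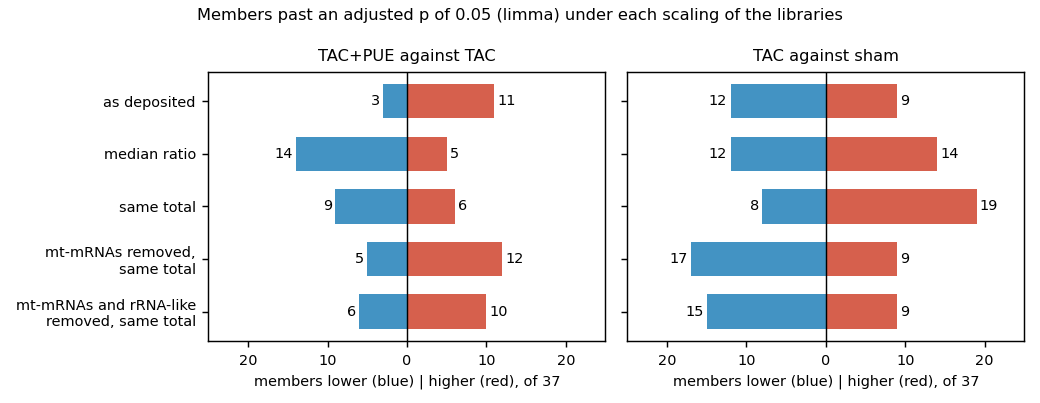
Number of the 37 members past an adjusted p of 0.05 (limma) that were lower (blue, to the left) or higher (red, to the right) under 5 scalings of the libraries. The split of TAC+PUE against TAC is 11 higher and 3 lower as deposited and 5 higher and 14 lower with median-ratio scaling, and that of TAC against sham is 9 and 12 as deposited and 19 and 8 with the same total.

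Dnm1l, the GTPase that wraps around and divides the mitochondrion, changed more than any other member in both comparisons as deposited. It had 34.3, 19.9 and 23.0 FPKM in the TAC+PUE hearts, 7.26, 10.8 and 11.6 FPKM in the TAC hearts and 35.9, 31.2 and 35.3 FPKM in the sham hearts. The TAC hearts lay under both other groups with no overlap, whereas TAC+PUE replicate 1 was within the sham range and the other TAC+PUE hearts stayed under it. The log2 fold change was 1.28 ± 0.22, adjusted p = 0.00369 for TAC+PUE against TAC, and -1.71 ± 0.16, adjusted p = 4.30e-05 for TAC against sham (SE, limma). Over the scalings, Dnm1l ran from 0.95 to 1.29 for TAC+PUE against TAC, beside -1.28 to -0.94 for Timm13. For TAC against sham it ran from -1.90 to -1.31, beside 1.19 to 1.79 for Timm13. The rank of Dnm1l is therefore stated only for the values as deposited. The outer-membrane adaptors of DRP1 had smaller fold changes. Fis1, a tail-anchored adaptor, had 18.1, 27.6 and 22.5 FPKM in the TAC+PUE hearts, 26.5, 23.6 and 26.9 FPKM in the TAC hearts and 17.1, 17.1 and 16.6 FPKM in the sham hearts. It was higher in TAC than in sham hearts (0.57 ± 0.11, adjusted p = 0.00139), and its TAC+PUE hearts spanned TAC levels and came down to near the sham level in replicate 1 (-0.19 ± 0.17, adjusted p = 0.416 against TAC). Mff, the other adaptor, had 6.60, 5.83 and 6.15 FPKM in the TAC+PUE hearts, 4.02, 5.87 and 4.54 FPKM in the TAC hearts and 6.12, 6.13 and 6.29 FPKM in the sham hearts. Its TAC hearts were all under the sham hearts and overlapped the TAC+PUE hearts, and it passed in neither comparison (0.32 for TAC+PUE against TAC with adjusted p = 0.131, and -0.32 for TAC against sham with adjusted p = 0.0661).

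Among the fusion genes, Opa1 and Mfn1 were lower in TAC than in sham hearts and Mfn2 did not pass. Opa1, which fuses inner membranes and shapes the cristae, had 28.4, 21.0 and 24.0 FPKM in the TAC+PUE hearts, 11.2, 15.9 and 17.9 FPKM in the TAC hearts and 35.1, 32.7 and 34.5 FPKM in the sham hearts. The 3 groups did not overlap, with TAC+PUE between the others. The log2 fold change was 0.68 ± 0.19, adjusted p = 0.0173 for TAC+PUE against TAC and -1.16 ± 0.16, adjusted p = 0.000193 for TAC against sham (SE, limma). The first call was lost without TAC replicate 1 (adjusted p = 0.0552) or TAC+PUE replicate 1 (0.0638). In the 300 bases given for Opa1, the overlapping NRF1 matches begin at bases 192 and 193. Mfn1, a mitofusin of the outer membrane, had 43.3, 35.2 and 37.6 FPKM in the TAC+PUE hearts, 22, 29.9 and 30.3 FPKM in the TAC hearts and 46.8, 45.9 and 44.4 FPKM in the sham hearts. Its groups did not overlap either, and its log2 fold change was 0.49 ± 0.17, adjusted p = 0.0411 for TAC+PUE against TAC and -0.73 ± 0.14, adjusted p = 0.00125 for TAC against sham. The first of these was lost when TAC replicate 1 or 2 or TAC+PUE replicate 1 or 3 was left out (adjusted p = 0.0536 to 0.137). Mfn2, the more abundant mitofusin, which also tethers mitochondria to the endoplasmic reticulum, had 123, 119 and 122 FPKM in the TAC+PUE hearts, 99.7, 130.3 and 129.7 FPKM in the TAC hearts and 116, 128 and 113 FPKM in the sham hearts. All 3 groups overlapped, and the log2 fold change was 0.03 ± 0.16, adjusted p = 0.907 for TAC+PUE against TAC and 0.00 ± 0.14, adjusted p = 0.985 for TAC against sham.

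Immt encodes MIC60, the core of the MICOS complex that forms the necks of the cristae. It had 23.4, 20.5 and 21.6 FPKM in the TAC+PUE hearts, 13.4, 18.8 and 19.2 FPKM in the TAC hearts and 24.4, 25.6 and 24.8 FPKM in the sham hearts. All TAC hearts were under all hearts of the other groups, and the log2 fold change was -0.54 ± 0.15, adjusted p = 0.00853 for TAC against sham and 0.35 ± 0.17, adjusted p = 0.125 for TAC+PUE against TAC. The prohibitins PHB and PHB2, which form a ring in the inner membrane that scaffolds proteases and lipids, moved less. Phb averaged 56.3 ± 5.96 FPKM in TAC+PUE hearts, 67.1 ± 4.53 FPKM in TAC hearts and 50.2 ± 2.98 FPKM in sham hearts (SD, n = 3), with a log2 fold change of 0.41 ± 0.12, adjusted p = 0.0113 for TAC against sham, a call lost without sham replicate 1 (0.0655) or sham replicate 3 (0.068). Phb had 52.4, 63.2 and 53.3 FPKM in the TAC+PUE hearts, 61.9, 69.3 and 70.2 FPKM in the TAC hearts and 49.3, 53.6 and 47.8 FPKM in the sham hearts. The TAC+PUE hearts overlapped both other groups. Phb2 had 37.3, 38.9 and 38.3 FPKM in the TAC+PUE hearts, 35.4, 45.7 and 45.8 FPKM in the TAC hearts and 33.7, 36 and 32.0 FPKM in the sham hearts, and it passed in neither comparison (-0.14 ± 0.15, adjusted p = 0.511 for TAC+PUE against TAC, and 0.30 ± 0.13, adjusted p = 0.069 for TAC against sham).

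The mitophagy members Bnip3, Bnip3l, Fundc1 and Fundc2 were lower in TAC hearts than in sham hearts, Pink1 did not pass, and Fkbp8, a receptor outside the members, was higher (1.09 ± 0.12, adjusted p = 6.56e-05, limma). Bnip3, an outer-membrane receptor induced by hypoxia that binds LC3 on the autophagosome, had 43.9, 38.2 and 30.9 FPKM in the TAC+PUE hearts, 14.8, 20.1 and 17.5 FPKM in the TAC hearts and 49.7, 49.9 and 49.9 FPKM in the sham hearts. The sham hearts differed from each other by less than 1 FPKM, the 3 groups did not overlap, and TAC+PUE lay between. The log2 fold change was 1.06 ± 0.18, adjusted p = 0.00339 for TAC+PUE against TAC and -1.47 ± 0.13, adjusted p = 3.39e-05 for TAC against sham (SE, limma). Bnip3l, which encodes the related receptor NIX, had 15.5, 13.2 and 15.4 FPKM in the TAC+PUE hearts, 7.23, 8.66 and 12.7 FPKM in the TAC hearts and 13.8, 15.4 and 16.8 FPKM in the sham hearts. Its TAC hearts were the lowest, with TAC replicate 3 close to TAC+PUE replicate 2, and the log2 fold change was 0.60 ± 0.19, adjusted p = 0.0294 for TAC+PUE against TAC and -0.66 ± 0.18, adjusted p = 0.00834 for TAC against sham. The first call was lost when TAC replicate 1 or 2 or TAC+PUE replicate 1 or 3 was left out (adjusted p = 0.0724 to 0.104).

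Fundc1, a hypoxia-responsive receptor that also sits at contacts with the endoplasmic reticulum, had 8.24, 5.36 and 6.38 FPKM in the TAC+PUE hearts, 1.85, 3.63 and 3.66 FPKM in the TAC hearts and 8.65, 7.12 and 7.42 FPKM in the sham hearts. TAC hearts lay under both other groups, which overlapped each other, and the log2 fold change was 0.94 ± 0.22, adjusted p = 0.00796 for TAC+PUE against TAC and -1.14 ± 0.19, adjusted p = 0.000525 for TAC against sham. Fundc2, its paralog, had 29.1, 21.5 and 23.7 FPKM in the TAC+PUE hearts, 8.48, 12.5 and 14.8 FPKM in the TAC hearts and 31.8, 28.4 and 33.9 FPKM in the sham hearts. The pattern was that of Fundc1 at a higher level, with 1.01 ± 0.20, adjusted p = 0.00485 for TAC+PUE against TAC and -1.35 ± 0.18, adjusted p = 0.000155 for TAC against sham. Pink1, the kinase that builds up on depolarised mitochondria and phosphorylates ubiquitin, had 103, 137 and 135 FPKM in the TAC+PUE hearts, 139, 151 and 162 FPKM in the TAC hearts and 121, 138 and 117 FPKM in the sham hearts. Its TAC hearts were higher than all sham hearts and overlapped none of the TAC+PUE hearts, but it did not pass for TAC+PUE against TAC (-0.28 ± 0.17, adjusted p = 0.218) or for TAC against sham (0.26 ± 0.13, adjusted p = 0.0979). Of the 5 mitophagy members, 4 were higher in TAC+PUE than in TAC hearts and 4 were lower in TAC than in sham hearts, with Pink1 as the exception in both, beside 32.9% of all genes higher in the first comparison and 37.7% lower in the second. Both comparisons use the same TAC hearts, so these counts are not independent and no overlap is read from them. The Bnip3l calls were lost with all libraries at the same total.

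**Figure D3:**
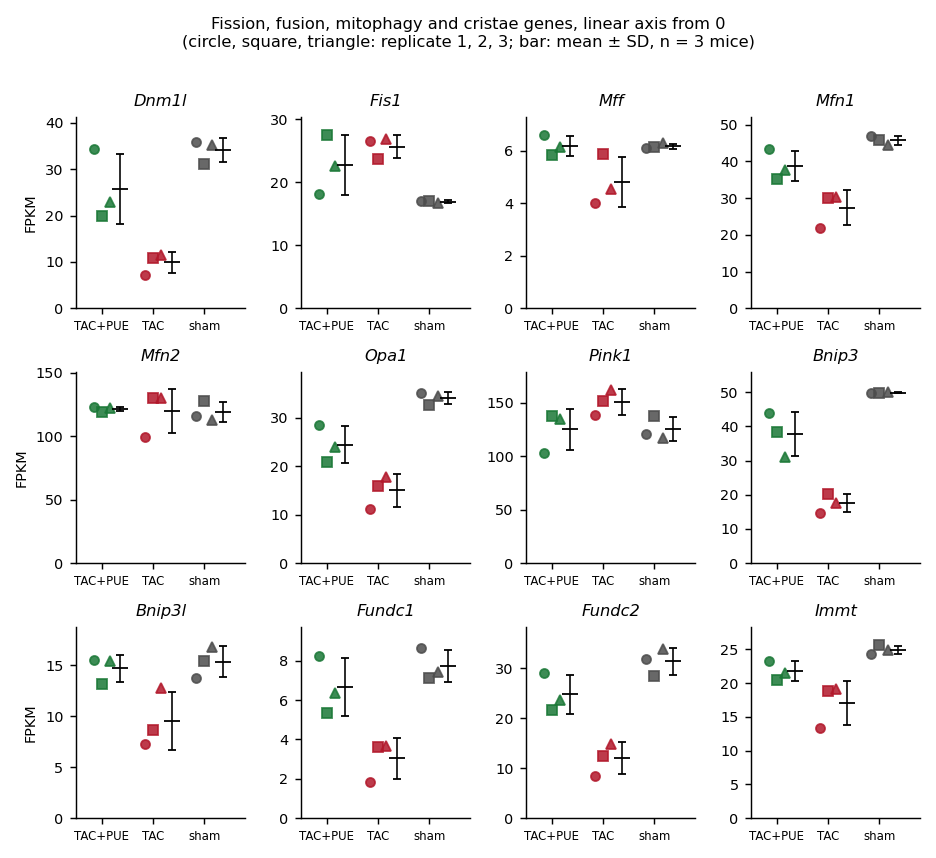
FPKM of 12 fission, fusion, mitophagy and cristae genes in every library, on linear axes from 0, for TAC+PUE, TAC and sham from left to right. Circles, squares and triangles are replicates 1, 2 and 3 and bars are mean ± SD, and the TAC points of Dnm1l, Opa1, Bnip3, Fundc1 and Fundc2 lie under all points of the other groups while those of Mfn2 do not.

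In the TOM complex the pore, its central receptor and a small subunit were higher in TAC than in sham hearts, and 1 peripheral receptor was lower. Tomm40, the pore, had 13.2, 15.8 and 13.6 FPKM in the TAC+PUE hearts, 24.1, 25.4 and 21.0 FPKM in the TAC hearts and 10.9, 12.8 and 10.3 FPKM in the sham hearts. Every TAC heart was above every heart of the other groups, and every TAC+PUE heart was above every sham heart. The log2 fold change was -0.69 ± 0.15, adjusted p = 0.00637 for TAC+PUE against TAC and 0.99 ± 0.13, adjusted p = 0.000145 for TAC against sham (SE, limma). Tomm22, the receptor that organises the pores, had 48.1, 63.2 and 50.0 FPKM in the TAC+PUE hearts, 70.6, 76.1 and 65.6 FPKM in the TAC hearts and 40.8, 46.8 and 39.6 FPKM in the sham hearts. Its groups did not overlap, and it passed for TAC against sham (0.73 ± 0.12, adjusted p = 0.000602) and not for TAC+PUE against TAC (-0.40 ± 0.16, adjusted p = 0.0711). Tomm6, a small subunit that stabilises the complex, had 5.98, 7.74 and 6.17 FPKM in the TAC+PUE hearts, 11.7, 11.5 and 8.38 FPKM in the TAC hearts and 4.01, 4.22 and 3.50 FPKM in the sham hearts. It was highest in TAC hearts with no overlap between groups (-0.59 ± 0.17, adjusted p = 0.0199 for TAC+PUE against TAC, and 1.22 ± 0.15, adjusted p = 9.86e-05 for TAC against sham), and the first call was lost when TAC replicate 1 or 2 or TAC+PUE replicate 1 or 3 was left out (adjusted p = 0.0662 to 0.0695). Tomm6 overlaps 4 other genes in RefSeq, its antisense transcript among them.

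Tomm70a, the receptor for carrier proteins that are handed over by cytosolic chaperones, moved the other way. It had 25.6, 19.7 and 19.5 FPKM in the TAC+PUE hearts, 13.9, 17.8 and 14.6 FPKM in the TAC hearts and 25.2, 24.4 and 25.5 FPKM in the sham hearts. All TAC hearts were under all hearts of the other groups, with -0.67 ± 0.12, adjusted p = 0.00101 for TAC against sham. For TAC+PUE against TAC it stood at the threshold (0.45 ± 0.17, adjusted p = 0.04997), and that call was lost without any library other than TAC replicate 2, at up to adjusted p = 0.192 without TAC+PUE replicate 1. Tomm20, the receptor for presequences, had 13.0, 12.7 and 11.9 FPKM in the TAC+PUE hearts, 8.70, 12.5 and 10.6 FPKM in the TAC hearts and 10.4, 11.7 and 10.7 FPKM in the sham hearts, and it passed in neither comparison (0.24 ± 0.16, adjusted p = 0.258 for TAC+PUE against TAC, and -0.06 ± 0.14, adjusted p = 0.749 for TAC against sham). Of the other outer-membrane members, Tomm7, Tomm34 and Tomm40l passed in neither comparison. Tomm5, a small subunit, had 65.5, 72.2 and 55.4 FPKM in the TAC+PUE hearts, 63.2, 12.1 and 66.5 FPKM in the TAC hearts and 55.1, 57.8 and 58.5 FPKM in the sham hearts, so that TAC replicate 2 alone stood far under the other 8 hearts. Without that library its log2 fold change was -0.02 for TAC+PUE against TAC and 0.18 for TAC against sham, against 0.76 and -0.60 with it.

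**Figure D4:**
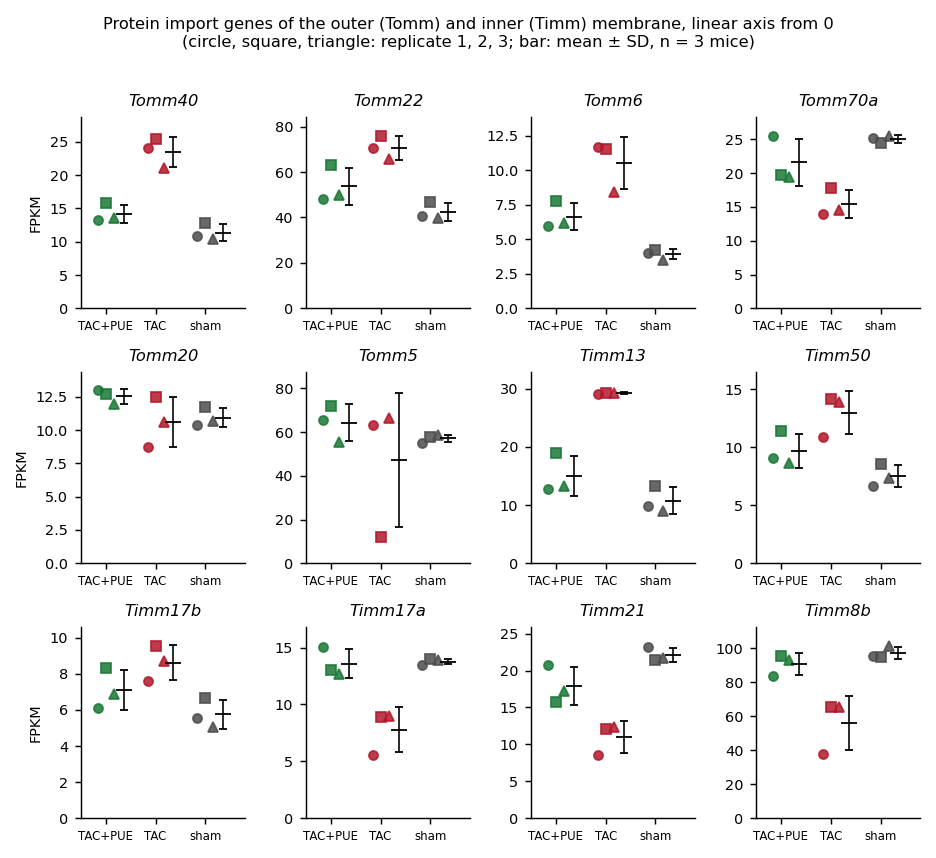
FPKM of 12 protein import genes in every library, on linear axes from 0, for TAC+PUE, TAC and sham from left to right, with replicates 1, 2 and 3 as circles, squares and triangles and bars for mean ± SD. The TAC points of Tomm40, Tomm22, Tomm6 and Timm13 lie above those of the other groups, those of Tomm70a, Timm17a, Timm21 and Timm8b lie under them, and TAC replicate 2 of Tomm5 stands at 12.1 FPKM.

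At the inner membrane the largest rise in TAC hearts was that of Timm13, a small TIM chaperone that carries hydrophobic proteins across the intermembrane space. Timm13 had 12.7, 18.9 and 13.2 FPKM in the TAC+PUE hearts, 29.1, 29.3 and 29.4 FPKM in the TAC hearts and 9.80, 13.4 and 9.04 FPKM in the sham hearts. The 3 TAC hearts were within 1 FPKM of each other and above all other hearts, and the TAC+PUE and sham ranges overlapped. The log2 fold change was -0.95 ± 0.17, adjusted p = 0.00385 for TAC+PUE against TAC and 1.38 ± 0.14, adjusted p = 5.83e-05 for TAC against sham (SE, limma). Timm8b, which in the intermembrane space belongs to the same family of small chaperones, went the other way with 83.5, 95.8 and 93.2 FPKM in the TAC+PUE hearts, 37.6, 65.4 and 65.2 FPKM in the TAC hearts and 95.6, 94.9 and 101 FPKM in the sham hearts. All TAC hearts were under all others, TAC replicate 1 lowest, and the log2 fold change was 0.73 ± 0.21, adjusted p = 0.0211 for TAC+PUE against TAC and -0.83 ± 0.20, adjusted p = 0.00415 for TAC against sham. Timm10b, another small TIM, had 3.79, 4.18 and 3.87 FPKM in the TAC+PUE hearts, 3.63, 4.76 and 4.10 FPKM in the TAC hearts and 2.61, 2.84 and 2.25 FPKM in the sham hearts. Both operated groups were above all sham hearts, at 0.47 ± 0.09, adjusted p = 0.0187 for TAC+PUE against sham and 0.53 ± 0.13, adjusted p = 0.00506 for TAC against sham, and they overlapped each other (-0.06 ± 0.14, adjusted p = 0.779 for TAC+PUE against TAC).

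The 2 alternative channel subunits of TIM23 moved in opposite directions. Timm17a, the form with a short-lived protein that is known to be cut back under stress, had 15.1, 13.0 and 12.7 FPKM in the TAC+PUE hearts, 5.53, 8.86 and 8.96 FPKM in the TAC hearts and 13.5, 14 and 13.9 FPKM in the sham hearts. TAC hearts were under all others, and the TAC+PUE and sham hearts overlapped (0.76 ± 0.19, adjusted p = 0.0101 for TAC+PUE against TAC, and -0.78 ± 0.16, adjusted p = 0.00217 for TAC against sham). Timm17b, the other form, had 6.13, 8.32 and 6.91 FPKM in the TAC+PUE hearts, 7.60, 9.54 and 8.72 FPKM in the TAC hearts and 5.58, 6.65 and 5.06 FPKM in the sham hearts. All TAC hearts were above all sham hearts and the TAC+PUE hearts overlapped both, with 0.51 ± 0.14, adjusted p = 0.00757 for TAC against sham and -0.25 ± 0.16, adjusted p = 0.235 for TAC+PUE against TAC. Timm23, the channel they join, had 66.4, 63.0 and 53.5 FPKM in the TAC+PUE hearts, 46.7, 64.5 and 60.5 FPKM in the TAC hearts and 61.8, 61.8 and 65.6 FPKM in the sham hearts, with the groups overlapping and no call (0.10 ± 0.17, adjusted p = 0.677 for TAC+PUE against TAC, and -0.15 ± 0.14, adjusted p = 0.37 for TAC against sham).

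Timm50, the receptor of TIM23 that takes presequences from the TOM complex, had 9.08, 11.4 and 8.61 FPKM in the TAC+PUE hearts, 10.9, 14.2 and 13.9 FPKM in the TAC hearts and 6.69, 8.59 and 7.34 FPKM in the sham hearts. It passed for TAC against sham (0.71 ± 0.14, adjusted p = 0.00152) and not for TAC+PUE against TAC (-0.39 ± 0.17, adjusted p = 0.0849), and its 3 TAC+PUE hearts were all above the sham hearts. Timm21, which links TIM23 to the TOM complex and to respiratory complexes, had 20.8, 15.7 and 17.2 FPKM in the TAC+PUE hearts, 8.54, 12.1 and 12.4 FPKM in the TAC hearts and 23.3, 21.4 and 21.7 FPKM in the sham hearts. Its groups did not overlap, with 0.66 ± 0.18, adjusted p = 0.0147 for TAC+PUE against TAC, lost without TAC+PUE replicate 1 (0.0581), and -0.96 ± 0.15, adjusted p = 0.000328 for TAC against sham. Timm44, the anchor of the import motor, had 15.6, 14.6 and 13.1 FPKM in the TAC+PUE hearts, 12.2, 16.2 and 15.5 FPKM in the TAC hearts and 16.1, 15.8 and 15.8 FPKM in the sham hearts, and Timm22, the channel for carrier proteins, had 6.77, 6.00 and 5.24 FPKM in the TAC+PUE hearts, 4.79, 6.33 and 6.80 FPKM in the TAC hearts and 2.78, 5.09 and 5.15 FPKM in the sham hearts. Neither passed in any comparison, and for Timm22 sham replicate 1 was the lowest heart. The remaining inner-membrane members, Timm8a1, Timm9, Timm10 and Timm29, also passed in none.

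A ratio of FPKM of paired genes within a library does not depend on its scaling, but the added 1 makes the tested ratio depend on it in part. For each of 11 pairs in 3 comparisons, the log2 ratio of FPKM + 1 was tested by a two-sided exact permutation test, which with 3 against 3 cannot go under p = 0.1, so none of the 33 relations could reach 0.05 (0.174 at the lowest after Benjamini-Hochberg adjustment). Timm17a/Timm17b was 2.46, 1.57 and 1.83 in the TAC+PUE hearts, 0.728, 0.929 and 1.03 in the TAC hearts and 2.42, 2.10 and 2.74 in the sham hearts, so the ratio of every TAC heart was under that of every other heart (exact p = 0.1 for TAC+PUE against TAC and exact p = 0.1 for TAC against sham). Mfn1/Mfn2 was 0.353, 0.295 and 0.308 in the TAC+PUE hearts, 0.220, 0.230 and 0.234 in the TAC hearts and 0.403, 0.360 and 0.394 in the sham hearts. The 3 groups did not overlap, and each comparison gave the lowest possible p. Opa1/Dnm1l, a ratio of a fusion to a fission gene, was 0.830, 1.05 and 1.05 in the TAC+PUE hearts, 1.54, 1.48 and 1.54 in the TAC hearts and 0.976, 1.05 and 0.976 in the sham hearts. Both genes were lower in TAC hearts, Dnm1l more so, and the TAC+PUE and sham ratios overlapped (exact p = 0.9). Fis1/Mff was 2.74, 4.73 and 3.67 in the TAC+PUE hearts, 6.60, 4.03 and 5.92 in the TAC hearts and 2.79, 2.79 and 2.65 in the sham hearts, above sham in every TAC heart and overlapping between TAC+PUE and TAC (exact p = 0.2). The groups also did not overlap between TAC and sham for Bnip3/Bnip3l and Timm10/Timm10b, which were lower in TAC hearts. Nor did they overlap for Timm8a1/Timm8b, Phb/Phb2 and Timm22/Timm23, which were higher. Tomm40/Tomm40l overlapped between TAC and sham. Fundc1/Fundc2 overlapped in every comparison. Without the added 1, the sign turned in 1 of the 33 relations, Fundc1/Fundc2 for TAC+PUE against TAC (0.10, against -0.07 with it).

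**Figure D5:**
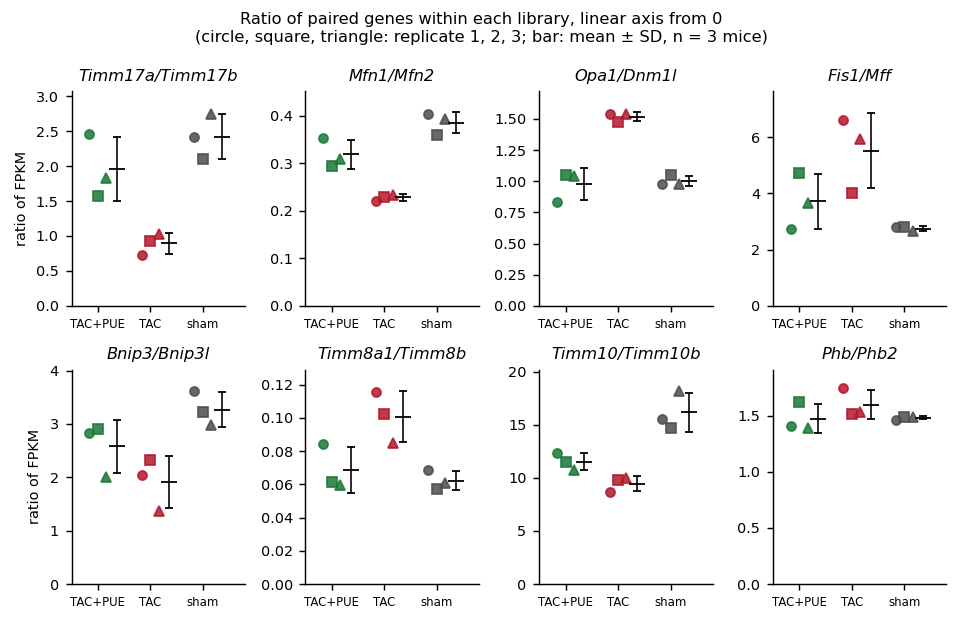
Ratio of FPKM of 8 gene pairs within each library, on linear axes from 0, for TAC+PUE, TAC and sham from left to right, with replicates 1, 2 and 3 as circles, squares and triangles and bars for mean ± SD. Timm17a/Timm17b averages 1.95, 0.895 and 2.42 and Mfn1/Mfn2 averages 0.319, 0.228 and 0.386 in the 3 groups.

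In TAC+PUE hearts compared with sham hearts few members passed. Tomm6 (0.63 ± 0.11, adjusted p = 0.0148) and Timm10b (0.47 ± 0.09, adjusted p = 0.0187) were higher and Opa1 (-0.47 ± 0.12, adjusted p = 0.035) was lower, 3 of 37 or 8.11%, beside 17.3% of all 11931 genes tested, of which 14.6% were higher and 2.70% lower (limma). At an unadjusted p under 0.05 there were 8 members higher and 5 lower. The share of all genes at that unadjusted threshold is not given, here or below. Such counts therefore cannot be set against all genes. The groups did not overlap for 10 members that were higher and 6 that were lower, 27.0 and 16.2% of the members, against 32.5 and 10.1% of all genes. Dnm1l stood at -0.43 ± 0.19, adjusted p = 0.138, Bnip3 at -0.41 ± 0.13, adjusted p = 0.0624 and Timm13 at 0.44 ± 0.19, adjusted p = 0.131, none of which passed. As a share of the sham mean, Bnip3 was at 75.6% in TAC+PUE and 35.0% in TAC hearts. The median over the members was 0.04, beside 0.11 over all genes. With all libraries at the same total 6 members were higher and 0 lower (16 and 1 at an unadjusted p under 0.05), and with median-ratio scaling 2 were higher and 5 lower. Of all genes, 29.1% were higher and 1.26% lower with the same total, and 7.57 and 6.38% with median-ratio scaling. Each of the 3 calls was lost without sham replicate 1 and without sham replicate 3. Without TAC+PUE replicate 1 there were 4 higher and 8 lower, and without TAC+PUE replicate 2, TAC+PUE replicate 3 or sham replicate 2 there were 2 higher and 0 lower, with 2, 2 and 3 lower at an unadjusted p under 0.05. Of all genes, 22.5% were higher and 8.54% lower without TAC+PUE replicate 1. The shares were 10.0 and 1.85% without TAC+PUE replicate 2, 8.49 and 1.57% without TAC+PUE replicate 3, and 8.59 and 1.12% without sham replicate 2. Without sham replicate 1 or sham replicate 3 there were 0 in either direction by limma, with 2 and 3 higher and 2 and 2 lower at an unadjusted p under 0.05. Of all genes, 3.37% were higher and 0.335% lower without sham replicate 1, and 3.03 and 0.36% without sham replicate 3. Leaving out the TAC+PUE libraries with Myl7 of at least 100 FPKM kept 1 TAC+PUE heart, so no count is given for it. The median over the members was then 0.08, beside 0.11 over all genes.

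Genes of the same processes that carry other names were read from 4 lists. Of 26 genes of the import machinery, 7 rose and 3 fell in TAC+PUE hearts relative to TAC hearts, and 3 rose and 12 fell in TAC hearts relative to sham hearts, 38.5 and 57.7% called beside 38.4 and 63.0% of all genes. By direction, 26.9% were higher and 11.5% lower, beside 32.9 and 5.45% of all genes, and 11.5 and 46.2%, beside 25.3 and 37.7%. Romo1, a small inner-membrane protein of the TIM23 complex, had 37, 64.6 and 41.2 FPKM in the TAC+PUE hearts, 124, 98.7 and 92.7 FPKM in the TAC hearts and 33.3, 40.7 and 32.9 FPKM in the sham hearts. The TAC hearts were above all others (-1.16 ± 0.22, adjusted p = 0.00417 for TAC+PUE against TAC, and 1.53 ± 0.15, adjusted p = 4.52e-05 for TAC against sham). Dnajc15, a J-protein of the import motor, was at 0.82 and -0.99 in the same comparisons, and Immp1l, a subunit of the inner-membrane peptidase, was at 0.93 and -0.92. Hspd1, the matrix chaperonin HSP60, had 117, 95.6 and 99.9 FPKM in the TAC+PUE hearts, 61.1, 77.9 and 78.5 FPKM in the TAC hearts and 136, 138 and 137 FPKM in the sham hearts, with every TAC heart under every other heart. It was the 1 gene of the list that passed for TAC+PUE against sham (-0.40 ± 0.10, adjusted p = 0.0354). Hsp90aa1, a cytosolic chaperone that hands precursors to TOM70, was at 0.97 ± 0.20, adjusted p = 0.00564 for TAC+PUE against TAC.

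Of 28 tested genes of fusion, fission, cristae and transport of mitochondria, 5 rose and 5 fell in TAC+PUE hearts relative to TAC hearts, and 10 rose and 9 fell in TAC hearts relative to sham hearts. These were 17.9% higher and 17.9% lower, beside 32.9 and 5.45% of all genes, and 35.7 and 32.1%, beside 25.3 and 37.7%. Apoo, the MICOS subunit MIC26, had 56.2, 35.4 and 47.4 FPKM in the TAC+PUE hearts, 9.55, 19.4 and 22.4 FPKM in the TAC hearts and 69.6, 58.2 and 67.8 FPKM in the sham hearts. Its TAC hearts were under all other hearts (1.44 ± 0.28, adjusted p = 0.0044 for TAC+PUE against TAC, and -1.95 ± 0.25, adjusted p = 0.000137 for TAC against sham). Apool, the related subunit MIC27, was at 0.90 and -1.39 in the same comparisons, and Yme1l1, the inner-membrane protease that cuts OPA1, at 1.16 and -1.51. Miga2, a regulator of fusion at the outer membrane, went the other way at -0.76 and 1.09. All of these passed in both comparisons, which share the TAC hearts.

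Of 25 tested genes of mitophagy outside the members, 10 rose and 1 fell in TAC+PUE hearts relative to TAC hearts, and 3 rose and 11 fell in TAC hearts relative to sham hearts. In all, 44.0 and 56.0% were called, beside 38.4 and 63.0% of all genes. For TAC+PUE against TAC 40.0% were higher and 4.0% lower, beside 32.9 and 5.45% of all genes. For TAC against sham 12.0% were higher and 44.0% lower, beside 25.3 and 37.7% of all genes. Tax1bp1, an autophagy adaptor that binds ubiquitin and LC3, had 12.6, 9.17 and 10.7 FPKM in the TAC+PUE hearts, 2.65, 4.07 and 4.72 FPKM in the TAC hearts and 13.5, 11.8 and 14.4 FPKM in the sham hearts. The TAC hearts lay under all others (1.31 ± 0.19, adjusted p = 0.00328 for TAC+PUE against TAC, and -1.59 ± 0.17, adjusted p = 6.08e-05 for TAC against sham). Usp15, a deubiquitinase that opposes parkin, was at 0.89 and -1.16, and Tbc1d15, a Rab GTPase-activating protein that binds FIS1, at 0.87 and -1.27. Vdac3, a pore of the outer membrane, was at 0.80 and Nipsnap2, which marks damaged mitochondria, at -1.10 in the comparison where each was among the largest changes. Fkbp8, a mitophagy receptor, had 16.7, 25.8 and 19.97 FPKM in the TAC+PUE hearts, 30.5, 27.8 and 29.3 FPKM in the TAC hearts and 12.1, 14.7 and 12.8 FPKM in the sham hearts, with no overlap between groups and TAC highest. It was the 1 gene of the list lower in TAC+PUE than in TAC hearts (-0.49 ± 0.17, adjusted p = 0.0444), had the highest value of the list for TAC against sham (1.09 ± 0.12, adjusted p = 6.56e-05), and was higher in TAC+PUE than in sham hearts (0.61 ± 0.16, adjusted p = 0.0397). Optn, an adaptor, was lower in TAC+PUE than in sham hearts (-0.28 ± 0.08, adjusted p = 0.0479). Of 12 matrix proteases and chaperones, 3 rose and 1 fell in TAC+PUE hearts relative to TAC hearts, and 3 rose and 5 fell in TAC hearts relative to sham hearts, 33.3 and 66.7% called, near the 38.4 and 63.0% of all genes. Clpx, the unfoldase of the matrix protease ClpXP, was at 0.73 and -1.15. Gdap1, Pld6, Nipsnap1 and Calcoco2 were not analysed here.

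Other nuclear genes of mitochondria gave the comparison for the members. Of 80 nuclear-encoded subunits of oxidative phosphorylation, 11 rose and 19 fell in TAC+PUE hearts relative to TAC hearts (median -0.04), and 27 rose and 18 fell in TAC hearts relative to sham hearts (median 0.09). Of 78 mitochondrial ribosomal proteins, 11 were higher and 9 lower (median 0.07), and 21 were higher and 19 lower (median -0.03), in the same comparisons. The shares higher and lower for TAC+PUE against TAC were 13.8 and 23.8% of the subunits and 14.1 and 11.5% of the ribosomal proteins, beside 32.9 and 5.45% of all genes, and for TAC against sham 33.8 and 22.5%, and 26.9 and 24.4%, beside 25.3 and 37.7%. The members stood at medians of 0.14 and -0.12, and the difference between the lists was not tested. The 13 mitochondrially encoded mRNAs were all higher in TAC+PUE than in TAC hearts (1.01 to 3.38, median 2.95) and all lower in TAC than in sham hearts (-5.51 to -1.53, median -4.01). Both medians lay beyond the value of any member, and the smallest of these changes did not exceed that of Dnm1l.

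The start-region motifs were spread over members of every direction. Of members with a start region, the NRF1 motif stood in 4 of 10 that were lower in TAC than in sham hearts (Bnip3, Immt, Opa1 and Timm8b), in 2 of 9 that were higher (Phb and Timm13) and in 2 of 14 that did not pass. The ETS motif stood in 6 of 10, 3 of 9 and 5 of 14. These counts were not tested, and the calls rest on the same libraries.

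Transcript values were also deposited for lists of lncRNAs that the authors had selected by their change, and 2 of these transcripts belong to member genes. Timm23-203, a transcript of Timm23, had 11.7, 22.8 and 13.0 FPKM in the TAC+PUE hearts, 29.4, 38.0 and 42.0 FPKM in the TAC hearts and 15.0, 13.7 and 16.6 FPKM in the sham hearts. Every TAC heart was above every other heart, whereas the gene value of Timm23 was 61.0, 57.2 and 63.1 FPKM on average in the 3 groups. Timm44-209, a transcript of Timm44, had 0.664, 0.655 and 0.906 FPKM in the TAC+PUE hearts, 1.85, 1.91 and 1.57 FPKM in the TAC hearts and 0.850, 0.667 and 0.555 FPKM in the sham hearts. Since the change chose these transcripts for the lists, the values are a description and were not tested.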

How the data were processed

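RNA-seq was carried out on heart tissue of 9 mice. According to their methods, the authors made libraries with a stranded RNA kit, sequenced them as read pairs on an Illumina NovaSeq instrument, aligned the reads with Hisat2, and assembled and quantified transcripts with StringTie and Ballgown. The submitters' processing notes name the build mm9. The authors deposited FPKM per gene in 2 tables, 1 for TAC+PUE and TAC and 1 for TAC and sham, whose TAC values were identical for all 13646 shared genes, and FPKM per transcript in lists of lncRNAs. No gene of a table has both group means under 0.500 FPKM. Columns with the authors' own fold changes and p-values were not used, and 0 columns of per-sample values were left out. The methods speak of TPM where the tables hold FPKM, and the tests were run on FPKM.

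Here log2(FPKM + 1) was fitted with limma (version 3.58.1, R 4.3.3; eBayes with trend) over genes that reached 1 FPKM in 3 or more of the 6 libraries compared. The test was two-sided with Benjamini-Hochberg adjustment over all genes tested at 0.05. Fold changes on this scale understate the change of low genes. Groups came from the sample labels and each library is a separate mouse, though p-values cover only the spread between these mice. Read depth is unknown, because among 714 low genes at most 4 shared 1 ratio between libraries (to 3 decimals), which does not give back read counts, and no count model was used. Ratios were tested with SciPy 1.17.1 (Python 3.11.15). Start regions came from RefSeq tables of GRCm38.p6, and no coordinates were converted from the build of the tables. All 37 symbols matched. The fit was tested on simulated data.

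Genes named with every library were the 14 members picked singly, the 6 Timm and Tomm genes with the largest called change in each comparison, and the channel, receptor and motor genes. Tomm5 was added after its values were seen. From each list of related genes up to 4 with the largest called change in a comparison were named. Members, lists and tests were chosen with earlier results of these data known. Other settings tried were pseudocounts of 0.1 and 5, a filter set at 10 FPKM or removed, median-ratio scaling, removal of mitochondrially encoded mRNAs with or without rRNA-like transcripts before rescaling, eBayes with its trend turned off, all 9 libraries in 1 fit, a block for the replicate number, and each library left out in turn. Rescaling to the same total with no gene removed, and leaving out libraries with Myl7 of at least 100 FPKM, were added after seeing the data.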

Additional observations from a re-analysis of the deposited data

How the results depend on the processing

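No member called as deposited changed sign under any alternative, and with 3 mice per group the counts moved with single libraries. For TAC+PUE against TAC the members called higher numbered 5 with median-ratio scaling and 6 with the same total, against 11, and the lower ones 14 and 9, 5 with the mitochondrially encoded mRNAs removed, 6 with the rRNA-like transcripts removed as well and 5 in the joint fit, against 3. In the joint fit 8.03% of all genes were lower. The median of the members was -0.16 with median-ratio scaling and -0.08 with the same total. For TAC against sham the higher members numbered 14 with median-ratio scaling and 19 with the same total, against 9, and the median was 0.03 with median-ratio scaling, -0.29 with the mitochondrially encoded mRNAs removed and 0.28 with the same total. For TAC+PUE against sham the higher members numbered 0 with the filter at 10 FPKM (4 at an unadjusted p under 0.05) and 6 with the same total. The lower ones numbered 5 with median-ratio scaling, 3 with the mitochondrially encoded mRNAs removed and 3 with the rRNA-like transcripts removed as well. They numbered 0 in the joint fit and with the same total (2 and 1 at an unadjusted p under 0.05). Of all genes tested, 14.7% were higher with the filter at 10 FPKM and 1.54% lower in the joint fit. With the removals 6.03 and 5.98% of all genes were lower. The median of the members was -0.016 with the filter, -0.07 with median-ratio scaling, -0.11 and -0.10 with the removals and 0.20 with the same total. It was 0.08 without the libraries with Myl7 of at least 100 FPKM, which kept 1 TAC+PUE heart. Both settings added after seeing the data, the same total and the Myl7 limit, are among these, and the joint fit shares 1 spread over 9 libraries, while the other causes were not tested.

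Leaving out 1 library at a time gave 6 to 11 higher, 2 to 5 lower and a median of 0.05 to 0.21 for TAC+PUE against TAC, 8 to 12 higher, 12 to 13 lower and a median of -0.17 to 0.01 for TAC against sham, and 0 to 4 higher, 0 to 8 lower and a median of 0.04 to 0.08 for TAC+PUE against sham. The share of all genes that was higher ranged from 21.9 to 36.6%, 19.3 to 29.5% and 3.03 to 22.5% in these comparisons. That of lower genes ranged from 2.27 to 7.13%, 32.2 to 42.1% and 0.335 to 8.54%. All 12 lower and 8 of 9 higher calls for TAC against sham, and 6 of 11 higher and 2 of 3 lower calls for TAC+PUE against TAC, held without any single library. Same-numbered libraries did not deviate together in every pair (correlations of -0.28, -0.11 and 0.20 across genes for TAC+PUE against TAC, -0.02, -0.00 and 0.06 for TAC against sham, and 0.19, 0.31 and 0.04 for TAC+PUE against sham). Deviations within a group of 3 depend on each other, so these values cannot decide whether the numbers pair the mice. With the replicate number as a block the counts were 9 higher and 3 lower, 11 and 13, and 6 and 2 in these comparisons. With this block 29.2% of all genes were higher and 4.58% lower for TAC+PUE against TAC, beside 32.9 and 5.45% without it. For TAC against sham 2926 of 11687 genes were higher and 4427 lower with it, beside 2955 and 4410 without it. For TAC+PUE against sham 21.4% of all genes were higher and 4.43% lower with it, beside 14.6 and 2.70% without it. The pseudocounts, no filter and eBayes without trend kept each count within 1.5 times. Depth is unknown, so the counting error of low members such as Timm9 cannot be given.

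With median-ratio scaling the sign of the log2 fold change turned for TAC+PUE against TAC at -0.33 for Mfn2, -0.14 for Timm10, -0.29 for Timm22, -0.25 for Timm23, -0.16 for Timm8a1 and -0.0905 for Tomm20. Of the other comparisons it turned for TAC against sham at 0.0935 for Timm10, 0.0147 for Timm23, 0.0347 for Timm44, 0.0159 for Timm8a1, 0.10 for Tomm20 and 0.0255 for Tomm34. It also turned for TAC+PUE against sham at -0.13 for Mff, -0.12 for Mfn2, -0.0056 for Timm10, -0.0655 for Timm29, -0.11 for Timm8a1, -0.0621 for Timm9 and -0.0249 for Tomm7. With the mitochondrially encoded mRNAs removed the sign of the log2 fold change turned for TAC against sham at -0.20 for Mfn2 and -0.10 for Timm29. Of the other comparisons it turned for TAC+PUE against sham at -0.17 for Mff, -0.17 for Mfn2, -0.0365 for Phb, -0.0240 for Phb2, -0.0531 for Timm10, -0.11 for Timm29, -0.15 for Timm8a1, -0.10 for Timm9, -0.000424 for Tomm20, -0.0327 for Tomm5 and -0.0725 for Tomm7. With the rRNA-like transcripts removed as well the sign of the log2 fold change turned for TAC+PUE against TAC at -0.0230 for Mfn2 and -0.0302 for Timm22. Of the other comparisons it turned for TAC against sham at -0.13 for Mfn2 and -0.0325 for Timm29. It also turned for TAC+PUE against sham at -0.16 for Mff, -0.15 for Mfn2, -0.0220 for Phb, -0.0096 for Phb2, -0.0386 for Timm10, -0.10 for Timm29, -0.14 for Timm8a1, -0.0852 for Timm9, -0.0182 for Tomm5 and -0.0581 for Tomm7. With the same total the sign of the log2 fold change turned for TAC+PUE against TAC at -0.23 for Mfn2, -0.0431 for Timm10, -0.21 for Timm22, -0.16 for Timm23, -0.0766 for Timm8a1 and -0.0016 for Tomm20. Of the other comparisons it turned for TAC against sham at 0.0441 for Mff, 0.35 for Timm10, 0.27 for Timm23, 0.28 for Timm44, 0.24 for Timm8a1, 0.0745 for Timm9, 0.34 for Tomm20 and 0.25 for Tomm34. It also turned for TAC+PUE against sham at 0.10 for Bnip3l, 0.16 for Pink1, 0.14 for Timm17a, 0.12 for Timm23, 0.0245 for Timm44 and 0.0697 for Timm8b. Without the libraries with Myl7 of at least 100 FPKM the sign of the log2 fold change turned for TAC+PUE against TAC at 0.0179 for Timm29 and 0.14 for Timm44. Of the other comparisons it turned for TAC against sham at -0.0581 for Mfn2. It also turned for TAC+PUE against sham at 0.0206 for Bnip3l, 0.0079 for Dnm1l, 0.0860 for Fundc1, 0.12 for Timm17a, 0.0745 for Timm23, -0.12 for Tomm7 and 0.0290 for Tomm70a. Without a pseudocount the log2 ratio Fundc1/Fundc2 for TAC+PUE against TAC was 0.10. Leaving out 1 library at a time turned the sign for some uncalled members and ratios, and the log2 values then ranged, for TAC+PUE against TAC, from -0.10 to 0.0925 for Mfn2, -0.13 to 0.0248 for Timm10b, -0.12 to 0.10 for Timm22, -0.0402 to 0.19 for Timm23, -0.0823 to 0.0260 for Timm29, -0.13 to 0.0596 for Timm44, -0.37 to 0.0744 for Tomm40l and -0.0184 to 1.16 for Tomm5. They ranged, for TAC against sham, from -0.0614 to 0.13 for Mfn2, -0.19 to 0.0831 for Timm10, -0.25 to 0.0090 for Timm8a1, -0.17 to 0.0668 for Tomm20 and -1.0 to 0.18 for Tomm5. They ranged, for TAC+PUE against sham, from -0.10 to 0.0679 for Opa1/Dnm1l, -0.0811 to 0.0277 for Phb/Phb2, -0.14 to 0.14 for Tomm40/Tomm40l, -0.0279 to 0.20 for Timm8a1/Timm8b, -0.13 to 0.0154 for Bnip3l, -0.0388 to 0.0385 for Mff, -0.0057 to 0.0834 for Mfn2, -0.0854 to 0.12 for Pink1, -0.0926 to 0.0246 for Timm17a, -0.12 to 0.0368 for Timm23, -0.0685 to 0.0807 for Timm8a1, -0.0133 to 0.0852 for Timm9 and -0.0109 to 0.24 for Tomm7. The members whose sign turned were uncalled as deposited in the comparison concerned, and the cause was not tested.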
